A study of Mus musculus with 2 samples.

Results

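The data described here are the transcript levels of 8 genes of cholesterol synthesis in cells isolated from mouse spleen as regulatory T (Treg) cells. The genes are Srebf2 and the mevalonate pathway enzyme genes Hmgcs1, Mvd, Fdps, Fdft1, Sqle, Lss and Cyp51. The 8 genes were chosen by symbol from the 20938 genes of the deposited tables, all 8 were found, and all 8 passed the filter on low levels. RNA-seq gave 1 library of Treg cells of heterozygous Foxp3-Mettl14f/+ cKO mice (labelled KD), in which Cre driven by Foxp3 removes 1 Mettl14 allele, and 1 library of Treg cells of littermate controls (labelled Ctrl), which the methods give as Mettl14f/f mice and the labels as wild type. The recipients of both libraries were C57BL/6J mice made diabetic with streptozotocin and given BALB/c islets under the kidney capsule, they received no anti-CD45RB or anti-CD40L antibody, and spleens were taken at day 7. The cells were isolated magnetically as CD4+CD25+ cells, the number and age of the mice behind each library were not given in the sources used here, and the label of the KD library reads Foxp3 knockdown, whereas the methods describe the Mettl14 deletion used here.

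Cells make cholesterol from acetyl-CoA through mevalonate, isoprenoid diphosphates, squalene and lanosterol. SREBP2, the protein of Srebf2, is a membrane-bound transcription factor that SCAP carries out of the endoplasmic reticulum when sterols are low, and it then raises the genes of this pathway and of lipoprotein uptake. When sterols are high, INSIG proteins retain SCAP and SREBP2, and oxysterols activate the LXR receptors, which raise the genes of sterol efflux. Lymphocytes need sterols and isoprenoids to grow and divide, and Treg cells use the mevalonate pathway for their function.

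The deposited value of a gene, called its level here, is a number of reads divided by 1 size factor per library. Every level was a whole multiple of the smallest level above 0, to within 0.02, so reads could be recovered. They summed to 20239325 in Ctrl and 18327535 in KD. Since each genotype is 1 library, no difference given here has a replicate check, and the 95% intervals, computed from the reads by the exact Clopper-Pearson method, cover counting error only. Changes are log2 ratios of KD to Ctrl levels after a pseudocount of 1 was added to both. Mettl14 had a level of 917 in Ctrl and 741 in KD, a log2 change of -0.31 (95% interval -0.45 to -0.16), and the gene-wide reads do not separate the deleted part from the rest. Foxp3 had levels of 1497 and 1548. All 10 Treg markers and all 16 T cell core markers were above 0 in both libraries, and so were all 12 B cell markers, all 12 macrophage markers, all 13 granulocyte markers and all 15 erythroid markers. In Ctrl the summed level was 254190 for the granulocyte markers and 76612 for the T cell core markers. The levels given here are those of the whole isolates, and the part that came from Treg cells was not tested.

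SREBP2 acts on the promoters of its target genes, so promoter sequences are shown before the levels. The RefSeq promoter table (GRCm38.p6, 250 bases before to 50 after the transcript start) held 5 of the 8 genes, namely Srebf2, Hmgcs1, Mvd, Lss and Cyp51. Searched on both strands were the core of the sterol regulatory element that SREBP proteins bind (TCACNCCAC), the box of NF-Y (CCAAT) and the box of Sp1 (GGGCGG). These motifs do not overlap each other in the promoters printed, and NF-Y and Sp1 are known partners of SREBP proteins. Hmgcs1 is shown as the promoter with the sterol regulatory element core, Lss as the promoter of the gene with the lowest change among the 5, and Mvd as that of the only gene with a higher level in KD. Each is printed along the gene's strand and ends before the earliest start that RefSeq or GENCODE annotates, with the motif letters in capitals.
Hmgcs1, chr13:119690101-119690350, plus strand: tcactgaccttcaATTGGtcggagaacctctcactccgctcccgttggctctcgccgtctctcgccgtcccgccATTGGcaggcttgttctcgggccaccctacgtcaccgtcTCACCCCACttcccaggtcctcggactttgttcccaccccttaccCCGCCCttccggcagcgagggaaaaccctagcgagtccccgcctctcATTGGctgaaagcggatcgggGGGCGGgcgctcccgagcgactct
Lss, chr10:76531355-76531587, plus strand: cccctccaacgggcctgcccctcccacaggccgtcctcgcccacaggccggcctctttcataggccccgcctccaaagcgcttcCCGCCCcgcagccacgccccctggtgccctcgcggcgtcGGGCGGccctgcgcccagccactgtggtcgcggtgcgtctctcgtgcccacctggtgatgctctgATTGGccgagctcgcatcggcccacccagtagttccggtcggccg
Mvd, chr8:122443423-122443672, minus strand: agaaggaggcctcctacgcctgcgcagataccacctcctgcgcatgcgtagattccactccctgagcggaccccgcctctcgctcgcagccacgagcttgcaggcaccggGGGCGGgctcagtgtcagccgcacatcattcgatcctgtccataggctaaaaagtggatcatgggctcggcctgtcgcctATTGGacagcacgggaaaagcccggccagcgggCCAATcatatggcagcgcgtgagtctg
The sterol regulatory element core stood 137 bases before the start of Hmgcs1, and it was present in 408 of the 32851 promoters of the table, or 1.24%. All 5 promoters held the NF-Y box, which was present in 37.4% of all promoters, and all 5 held the Sp1 box, present in 35.7%. Mvd shared both boxes with the 4 genes whose level was lower in KD. A match is a description of the letters only, and no binding was measured. Only the exact letters were searched, so the lack of a match does not show that a promoter lacks the element.

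**Figure D1:**
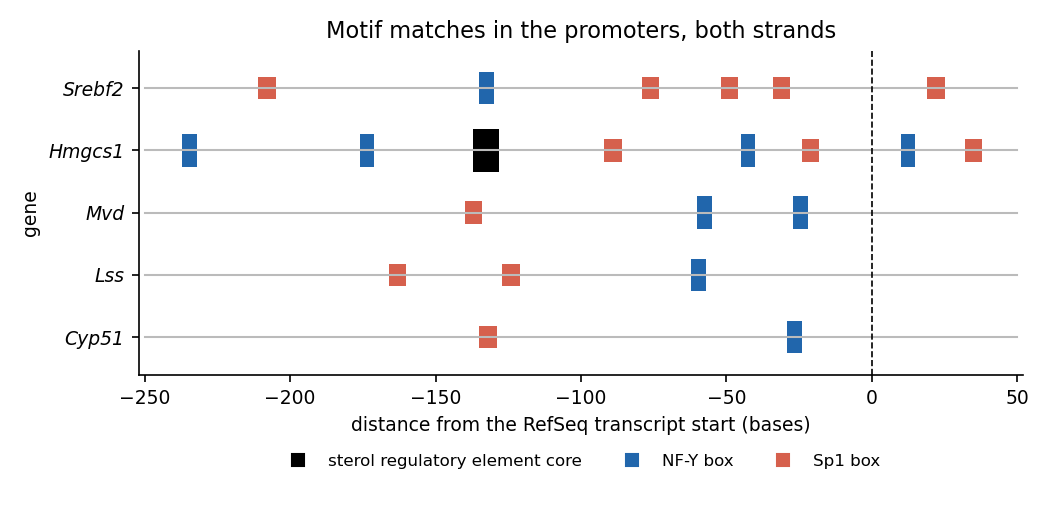
Motif matches on either strand in the promoters of Srebf2, Hmgcs1, Mvd, Lss and Cyp51, by distance in bases from the RefSeq transcript start (dashed line), with the sterol regulatory element core in black, NF-Y boxes in blue and Sp1 boxes in red. Every promoter has at least 1 NF-Y box and 1 Sp1 box. Among the 5, an exact match to the sterol regulatory element core is found only in Hmgcs1, 137 bases before the start.

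Of the 8 genes, 7 had a lower level in KD and 1, Mvd, had a higher level. Of the 16659 genes whose mean level reached 1, 8875 had a log2 change below 0 and 7784 above 0. Of the 9626 genes whose mean level reached 200, 4587 were below 0 and 5039 above 0. At the study's threshold of 1.5-fold, 3 genes were lower (Sqle, Lss and Fdps) and 0 were higher. Among the 16659 genes whose mean level reached 1, 24.2% were at least 1.5-fold lower and 17.2% at least 1.5-fold higher, and among the 9626 genes whose mean level reached 200, a limit chosen after seeing the data that keeps all 8 genes, these shares were 7.56% and 11.1%. Counting intervals lay below 0 for 7 of the 8 genes and above 0 for 1, against 34.7% and 31.6% of all genes past the filter, and 34.0% and 39.9% of those whose mean level reached 200, so an interval that leaves out 0 was common at this depth. The median log2 change of the 8 genes was -0.50, against -0.04 for all genes past the filter and 0.02 for those whose mean level reached 200. Their summed level was 9338 in Ctrl and 7369 in KD, from 9653 and 6480 reads, a log2 change of -0.34 (95% interval -0.39 to -0.30). Srebf2 alone supplied 4722 and 3565 of these reads, so the sum weighs that gene most.

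Srebf2, the gene of the transcription factor, spans 82147181 to 82205379 of chromosome 15 (GRCm38, plus strand). Its level was 4568 in Ctrl and 4054 in KD, from 4722 and 3565 reads, a log2 change of -0.17 (95% interval -0.24 to -0.11). It was the most abundant of the 8 genes in both libraries. Its change was the smallest in size on the deposited scale, a rank that depended on the scaling described below. Among the genes whose mean level reached 200, 30.4% had a lower change than Srebf2.

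In the steps from acetyl-CoA to isoprenoid diphosphates, Hmgcs1 encodes the cytosolic HMG-CoA synthase, Mvd the mevalonate diphosphate decarboxylase and Fdps the farnesyl diphosphate synthase. Hmgcs1 (chromosome 13, 119690379 to 119708260) had levels of 1005 and 781 in Ctrl and KD, from 1039 and 687 reads, a log2 change of -0.36 (-0.50 to -0.22). Mvd (chromosome 8, 122433601 to 122443422) had levels of 234 and 299, from 242 and 263 reads, a log2 change of 0.35 (0.10 to 0.61). Fdps (chromosome 3, 89093588 to 89101959) had levels of 797 and 499, from 824 and 439 reads, and was 1.60-fold lower in KD, a log2 change of -0.67 (-0.85 to -0.51). Mvd was therefore apart from Hmgcs1 and Fdps, the other described genes of this stretch of the pathway. Its interval lay above 0 and did not meet the interval of any of the other 7 genes, although it had the fewest reads of the 8 in both libraries.

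In the steps that commit isoprenoids to sterols, Fdft1 encodes squalene synthase, Sqle squalene epoxidase, the rate-limiting enzyme of this branch, Lss lanosterol synthase and Cyp51 the lanosterol demethylase. Sqle (chromosome 15, 59315077 to 59331192) had levels of 736 and 378, from 761 and 332 reads, and was 1.95-fold lower in KD, a log2 change of -0.96 (-1.15 to -0.78). This was the largest change of the 8 genes, and 2.10% of the genes whose mean level reached 200 had a lower one. Lss (chromosome 10, 76531588 to 76557138) had levels of 507 and 307, from 524 and 270 reads, and was 1.65-fold lower, a log2 change of -0.72 (-0.94 to -0.51). Cyp51 (chromosome 5, 4081145 to 4104746) had levels of 753 and 517, from 778 and 455 reads, a log2 change of -0.54 (-0.71 to -0.37). Fdft1 (chromosome 14, 63145150 to 63179578) had levels of 738 and 533, from 763 and 469 reads, a log2 change of -0.47 (-0.64 to -0.30). All 4 genes of the squalene and lanosterol steps thus had lower levels in KD, and Sqle and Lss were past 1.5-fold.

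**Figure D2:**
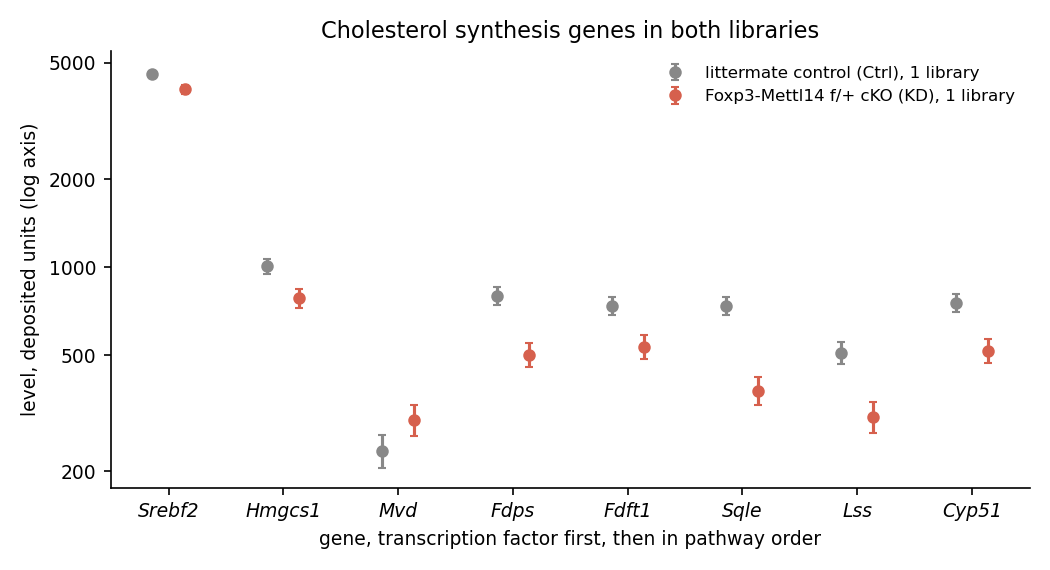
Level of each of the 8 genes in Ctrl (grey) and KD (red), in deposited units on a log axis, with 1 library per genotype and bars that are 95% exact Poisson intervals of the reads. The red point lies under the grey point for 7 genes and above it for Mvd, at 299 against 234.

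Ordered by change, the genes ran from Sqle through Lss, Fdps, Cyp51, Fdft1, Hmgcs1 and Srebf2 to Mvd. Neighbours in this order had overlapping intervals, except Srebf2 and Mvd. Of the 28 pairs of the 8 genes, 17 had separate intervals and 11 had overlapping ones, counting error being the only error included. Per kilobase of the merged exons of all GENCODE vM21 transcripts and per 1000000 reads, the level of Srebf2 was 32.5 in Ctrl and 27.1 in KD. Hmgcs1 followed with 11.2 and 8.16, and Lss was lowest with 2.40 and 1.37. The last place of Lss depends on its merged exon length of 10787 bases, against 1859 for Mvd. Lss had more reads than Mvd, 524 against 242 in Ctrl and 270 against 263 in KD. On this scale the control values of Fdps, Fdft1 and Cyp51 lay between 8.71 and 9.68, with overlapping intervals between neighbours. Sqle and Mvd had overlapping control values of 6.78 and 6.43. In KD they were apart, at 3.27 for Sqle and 7.72 for Mvd, and Mvd then stood next to Hmgcs1 in the order, with overlapping intervals.

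Some reads of 5 of the genes could belong to overlapping genes, and whether the counting used strand was not given in the sources used here. Exons of Fdft1 share 774 bases with Ctsb on the opposite strand, a cathepsin gene with 5164 and 6203 reads in Ctrl and KD. Exons of Cyp51 share 166 bases with Akap9 on the opposite strand, with 7078 and 5804 reads. Fdps shares 26.7% of its exon bases with Gm43738 on its own strand, and Hmgcs1 and Lss overlap antisense genes over 12.1% and 3.53% of theirs. Srebf2, Mvd and Sqle share no exon bases with another gene of this annotation.

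The other enzymes of the pathway were compared as a list of 15 genes. Of these, 2 were at least 1.5-fold lower, 1 was at least 1.5-fold higher and 12 were under 1.5-fold, with a median log2 change of -0.17. Beside these counts, 24.2% of all genes past the filter were at least 1.5-fold lower and 17.2% at least 1.5-fold higher. Intervals lay below 0 for 7 and above 0 for 2, beside the 34.7% and 31.6% of all genes. Among the lower genes was Idi1, the isopentenyl diphosphate isomerase, with levels of 673 and 431 and a change of -0.64 (95% interval -0.83 to -0.46). The gene past 1.5-fold in the other direction was Idi2, with 8 and 38 reads and a change of 2.34 (1.36 to 3.79). Mvd was not alone among the enzymes with intervals above 0, since Ebp, the sterol isomerase, had levels of 328 and 461 and a change of 0.49 (0.28 to 0.70).

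**Figure D3:**
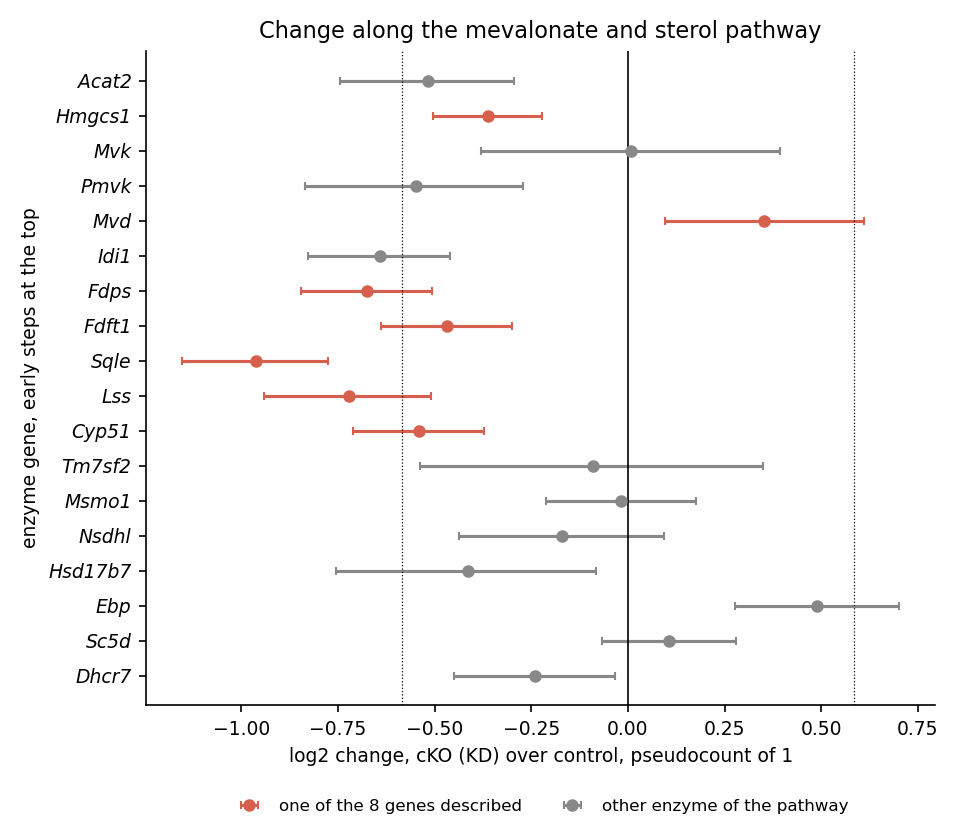
Log2 change of the cKO over the control level for a selection of enzyme genes from acetyl-CoA to cholesterol, early steps at the top, with the 7 enzyme genes described here in red and others in grey; bars are 95% counting intervals and dotted lines mark 1.5-fold. From Idi1 to Cyp51 all 6 points lie left of 0, between -0.96 and -0.47, while Mvd lies at 0.35 and Ebp at 0.49, and Idi2, an isomerase gene of the same step as Idi1 with a change of 2.34, is not plotted.

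The genes that hold SREBP proteins in check or release them were measured as a list of 10. Of these, 1 was at least 1.5-fold lower, 1 at least 1.5-fold higher and 8 under 1.5-fold, and the median log2 change was -0.02. The matching shares of all genes past the filter were 24.2% lower and 17.2% higher. Scap, the escort of SREBP2, had levels of 1593 and 1656 and a change of 0.06 (95% interval -0.05 to 0.16), and Insig1, which retains it, had levels of 502 and 540 and a change of 0.11 (-0.08 to 0.29). Srebf1, the gene of the related factor of fatty acid synthesis, had a change of -0.08 (-0.18 to 0.02). For these 3 genes no difference was detectable at this depth on the deposited scale. The gene past 1.5-fold on the higher side was Syvn1, a ubiquitin ligase of the endoplasmic reticulum, at 0.63 (0.54 to 0.71).

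Of the 15 genes of LDL uptake and sterol transport, 2 were at least 1.5-fold lower, 1 at least 1.5-fold higher and 12 under 1.5-fold, with a median log2 change of 0.06. Among all genes past the filter, 24.2% were lower and 17.2% higher at this threshold. Stard4, a sterol carrier and SREBP2 target, had levels of 1062 and 650 and a log2 change of -0.71 (95% interval -0.86 to -0.56). Lrp1, a large endocytic receptor that is abundant in macrophages, had levels of 3084 and 8313 and a change of 1.43 (1.37 to 1.49). Vldlr had 40 reads in Ctrl and 0 in KD, which is 11.3-fold lower when KD is set to a floor of 3 reads. Its counting interval reached up to a log2 change of -3.14. Zeros were frequent in KD, since 105 of the 714 genes that had 30 to 50 Ctrl reads were at 0 there, where sampling gives an expected number of 6.49e-10, so the size of this change cannot be read from counting error.

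Of the 11 genes of sterol efflux and LXR signalling past the filter, 6 were at least 1.5-fold higher, 0 were at least 1.5-fold lower and 5 were under 1.5-fold, with a median log2 change of 0.70. For this list and the macrophage markers below, the shares of all genes past the filter were 17.2% higher and 24.2% lower. Among genes whose mean level reached 200, these shares were 11.1% and 7.56%. Abca1, which exports cholesterol, had levels of 1218 and 6209 and a change of 2.35 (95% interval 2.26 to 2.44). Abcg1, a second sterol exporter, changed by 0.70 (0.62 to 0.78), and Mylip, an LXR target that encodes a ubiquitin ligase, by 0.95 (0.86 to 1.03). Apoe changed by 2.17, Cyp27a1 by 2.48 and Nr1h3, the gene of LXR alpha, by 2.11 from 31 to 117 reads. Macrophages express these last 3 genes strongly. All 12 macrophage markers were at least 1.5-fold higher in KD, their summed level was 5379 in Ctrl and 16322 in KD, none was at 0, and Cd5l had 26 and 479 reads. The part of macrophage RNA in the change of the efflux genes was not tested.

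In the branches beside sterol synthesis, 2 of the 14 genes of the non-sterol isoprenoid branch were at least 1.5-fold lower and 1 was at least 1.5-fold higher, with a median log2 change of -0.09. For this list and the next, the shares of all genes past the filter were 24.2% lower and 17.2% higher. The 2 lower genes encode prenyltransferase subunits, Rabggtb at -0.93 (95% interval -1.04 to -0.83) and Fntb at -0.69 (-0.95 to -0.43), and the higher gene was Pdss2, of ubiquinone synthesis, at 0.59 (0.27 to 0.93). Of the 14 genes of fatty acid synthesis, 3 were at least 1.5-fold lower and 1 at least 1.5-fold higher, with a median of -0.22. The desaturase genes Fads1 and Fads2 had changes of -1.10 (-1.28 to -0.92) and -1.11 (-1.28 to -0.93). Scd1, another desaturase gene, had levels of 1402 and 8260 and a change of 2.56 (2.48 to 2.64). Me1 had 10 and 0 reads, 2.84-fold lower when KD is set to the floor of 3 reads. Its counting interval reached up to a log2 change of -0.93, and the limit given above for genes at 0 in KD applies.

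**Figure D4:**
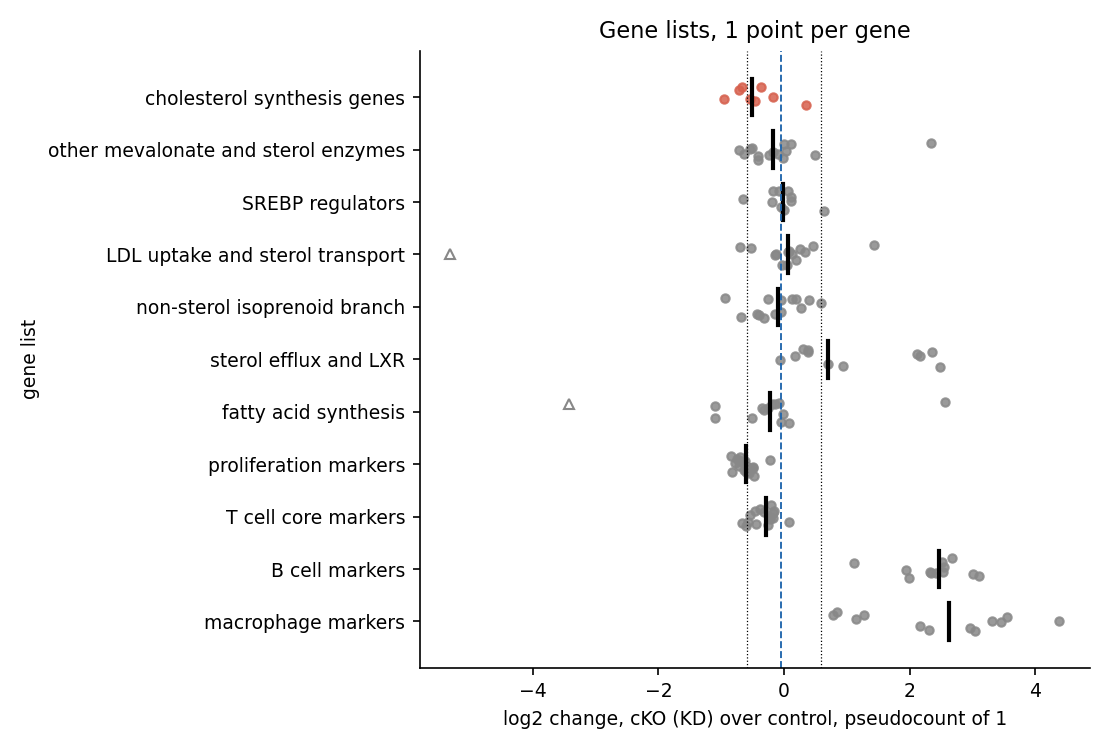
Log2 change of every gene past the filter in each list, 1 point per gene, with the list median as a black bar, the median of all genes as a dashed blue line at -0.04, 1.5-fold as dotted lines, and open triangles for genes with 0 reads in 1 library. The 8 cholesterol synthesis genes (red) have a median of -0.50 and the sterol efflux and LXR genes 0.70. Among the marker lists, the medians are -0.61 for proliferation, -0.28 for T cell core, 2.47 for B cell and 2.63 for macrophage markers.

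Marker lists of cell types and of cell division differed between the libraries in both directions. Over all 16659 genes past the filter, 24.2% were at least 1.5-fold lower and 17.2% at least 1.5-fold higher. A log2 change below 0 was found for 8875 of them. All 20 proliferation markers had lower levels in KD, 14 of them at least 1.5-fold lower, with a median log2 change of -0.61 and summed levels of 105820 and 68769. Of the 16 T cell core markers, 15 had lower levels and 2 were at least 1.5-fold lower, with a median of -0.28 and summed levels of 76612 and 61918. Of the 10 Treg markers, 1 was at least 1.5-fold lower and 2, Il2ra and Lrrc32, at least 1.5-fold higher, with a median of -0.02 and summed levels of 9139 and 9767. The 12 B cell markers were all at least 1.5-fold higher, with summed levels of 9194 and 48493. Of the 15 erythroid markers, 12 were at least 1.5-fold lower, with summed levels of 45037 and 23870. The 13 granulocyte markers had summed levels of 254190 and 344730, with 3 at least 1.5-fold lower and 2 at least 1.5-fold higher. In bulk RNA, fewer cells of a type and less RNA per cell cannot be told apart. The part of cell composition and of cell division in the lower levels of the 7 cholesterol synthesis genes was not tested.

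The scaling of the libraries bore on the size of these changes. With TMM, median-of-ratios and library-total scaling, Srebf2, Hmgcs1, Fdps, Fdft1, Sqle, Lss and Cyp51 were lower and Mvd higher, as they were before rescaling. With the 16 T cell core markers set equal between the libraries, the median of all genes moved from -0.04 to 0.24, 58.4% rather than 41.6% of the genes past 1.5-fold were higher, and the median of the 8 genes was -0.22. Under that scaling Sqle at -0.68 remained at least 1.5-fold lower, Lss at -0.44 and Fdps at -0.39 did not, Mvd at 0.63 was past 1.5-fold on the higher side, and Srebf2 was above 0 at 0.11. Mettl14 itself was at -0.02 and Foxp3 at 0.33 when the T cell core markers were set equal. A scaling shifts every gene alike, so the difference between the median of the 8 genes and that of all genes, -0.46 on the deposited scale, is fixed across scalings but for the pseudocount.

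**Figure D5:**
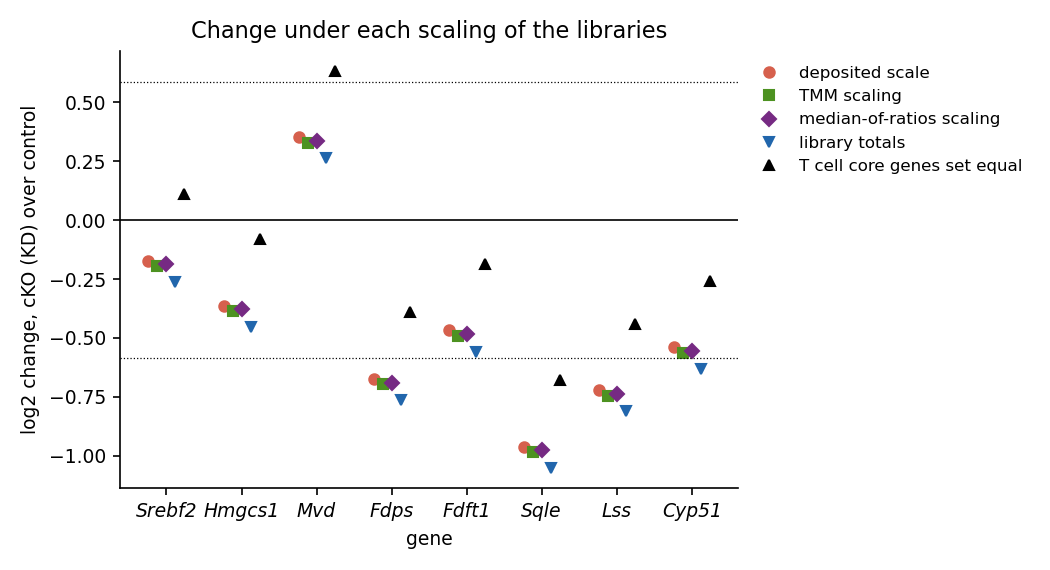
Log2 change of each of the 8 genes on the deposited scale and under 4 other scalings of the libraries, with dotted lines at 1.5-fold. Setting the T cell core markers equal (black triangles) moves every gene up, so that Srebf2 lies at 0.11 and Sqle at -0.68.

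Recovered reads of 14863 genes, those reaching 10 reads in the 2 libraries together, were also compared by an exact binomial test (two-sided), whose result is about the libraries rather than the genotypes. At an adjusted p under 0.1 with a change of at least 1.5-fold it called 2583 genes lower (17.4%) and 2183 higher (14.7%), and Sqle, Lss and Fdps among them. When edgeR's exact test was given an assumed biological coefficient of variation of 0.2, it called 0 of the 8 genes, against 9.75% of genes lower and 6.45% higher, and with 0.4 it again called 0 of the 8, against 3.83% lower and 1.57% higher.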

How the data were processed

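RNA-seq was performed on 2 libraries of splenic Treg cells, 1 per genotype, and groups were taken from the sample titles. The authors aligned reads to mm10. The methods name TopHat, whereas the submitters' processing notes list bcl2fastq 2.0, STAR, StringTie and DESeq2 with no roles, and the counter and annotation were not given in the sources used here. The deposited values are a signal, namely counts of reads that the authors scaled by a size factor in each library; 100% of them were whole multiples of the smallest value, 0.967 and 1.14, so reads could be recovered. If reads were assigned by a transcript assembler, recovered reads are estimates.

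Computed from them were log2 changes (pseudocount of 1, minimum mean level of 1, 1.5-fold threshold), exact Clopper-Pearson 95% intervals, an exact binomial test with Benjamini-Hochberg adjustment, and edgeR's exact test with assumed variation. The methods also give a threshold of 0.1 with no quantity, read here as an adjusted p. A count of 3 reads, the floor, equals a level of 2.90 in the control and 3.41 in the cKO library. Intervals and floors cover counting error only, as reads are not independent molecules. The steps were tested on simulated data that held counting error only. That setting leaves out variation between mice and the excess of zeros seen in KD.

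Named are the 8 genes, Mettl14, Foxp3, genes of the pathway lists past 1.5-fold with at least 10 reads, Idi1, Insig1, Scap and Srebf1, and a few markers; some genes that this rule names are not reported here. Ebp, Ctsb, Akap9 and Gm43738 were named after their values were seen. The genes and lists, written from general knowledge, were chosen with earlier results of these data known. Ch25h, with 2 and 0 reads, was the only list gene under the filter. Symbols were matched to GENCODE vM21 (GRCm38, 20490 of 20938). Python 3.11.15, scipy 1.17.1, R 4.3.3, edgeR 4.0.16 and DESeq2 1.42.0 (median of ratios) were used.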

Additional observations from a re-analysis of the deposited data

How the results depend on the processing

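Each genotype has 1 library, so nothing here has a replicate check, and precision is limited by the reads of each gene, fewest for Mvd. No paired analysis was possible because no group holds a second sample. The minimum mean level of 200 was chosen after seeing the data. For the 8 genes, pseudocounts of 0.1 and 5, no filter, minimum mean levels of 10 and 200, leaving out genes at 0 in either library, and the TMM and median-of-ratios scalings left every change within its counting interval and the 3 lower genes unchanged. Library totals gave 4 lower genes, Cyp51 being added, and a summed change of -0.43. With the T cell core markers set equal, the median of the 8 genes was -0.22, the summed change -0.059, the lower genes 1 and the higher genes 1. Of all genes, 4543 were then higher and 3242 lower. A threshold of 2-fold left 0 of the 8 genes, and so did edgeR with assumed coefficients of 0.2 and 0.4. Under these 3 settings, in that order, the higher genes were 1722, 958 and 234 of all genes. The lower ones were 3019, 1449 and 569. The lower genes were 2035 and 728 of all genes at minimum mean levels of 10 and 200 (1069 higher at 200), 1904 among genes above 0 in both libraries, which leave out zeros, and 2583 with the exact binomial test, against 4028; the cause of the other shifts was not tested.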
